A study of Saccharomyces cerevisiae with 8 samples.

Results

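The genes that load tRNAs with amino acids and drive the ribosome through initiation, elongation and termination were followed in 2 strains of Saccharomyces cerevisiae, with and without acetic acid. The set was given as 51 named genes: 8 for elongation factors, 23 for initiation factors, 2 for termination factors and 18 for cytosolic aminoacyl-tRNA synthetases. They were listed by name, with earlier results of these data known. Probe sets were found for 48 of the 51, and 46 of them were read above background on at least 2 arrays and so were tested, out of 3879 genes tested in all. TEF1, EFT1 and TIF1 had no probe set under their own names. The probe sets of TEF2, EFT2 and TIF2 carry the suffix of sets that can hybridise with related transcripts, and each of these genes has a twin (TEF1, EFT1, TIF1) that encodes the same protein, so their signals cannot be assigned to 1 twin. TIF4632 (highest signal 32.3) and GCD2 (highest signal 19.9) did not exceed background on any array and were not tested.

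Poly(A) RNA of 8 samples was measured on Affymetrix arrays, 2 arrays in each of 4 groups. Strain NFRI 3145, labelled tolerant to acetic acid, was sampled after 30 min with 0.6% acetic acid (0.6% AcOH) and without acid (0% AcOH), and so was strain NBRC 0224, labelled sensitive. The temperature was 30 °C in all groups. The labels give a time only for the 0.6% AcOH samples, so acid and time of handling cannot be told apart, and they do not say whether the 2 arrays of a group came from separate cultures, so p-values measure only the spread between these arrays.

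In initiation, eIF2 brings the first tRNA to the small ribosomal subunit, eIF2B recharges eIF2 with GTP, eIF3 and the eIF4 factors recruit the mRNA, and eIF1, eIF1A, eIF5 and eIF5B govern the choice of start codon and the joining of the large subunit. Elongation factors then deliver charged tRNAs and move the ribosome, and eRF1 and eRF3 release the finished chain at a stop codon. Each aminoacyl-tRNA synthetase joins 1 amino acid to its tRNAs. In yeast, uncharged tRNAs activate the kinase Gcn2, which phosphorylates eIF2 and thereby raises translation of the transcription factor Gcn4.

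Signals are in linear intensity units, which the authors had scaled to a common trimmed mean per array. Background, the 95th percentile of the probe sets for Schizosaccharomyces pombe genes on the same array, ran from 31.5 to 43.9, and 40 to 46 of the 48 measured members exceeded it on an array. Replicate arrays differed by more than 2-fold for 1 to 6 of the 46 tested members per group. A change below is a difference of mean log2 signals with the standard error (SE) of 1 limma fit over all 8 arrays, n = 2 arrays per group, and a gene was called at a Benjamini-Hochberg adjusted p under 0.05 over all 3879 genes. In bulk RNA, fewer cells expressing a gene and less RNA per cell cannot be told apart. Signals were not corrected for sequence differences between the strains. In the strain differences below, less RNA and weaker probe binding in a strain therefore cannot be told apart.

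More members were called between the strains than between the acid levels, which also holds over all tested genes. Of all genes 46.1% were called between the strains at 0.6% AcOH and 50.2% at 0% AcOH. Under acid 13.5% were called in NFRI 3145 and 8.4% in NBRC 0224. At 0.6% AcOH, 21 of the 46 tested members were lower in NFRI 3145 than in NBRC 0224, against 28.7% of all tested genes, and 5 were higher, against 17.4%. At 0% AcOH, 28 members were lower, against 29.1% of all genes, and 6 were higher, against 21.1%. Where a pair of strain differences is given below, the first is at 0.6% AcOH and the other at 0% AcOH. The members lower in NFRI 3145 were synthetases, initiation factors and termination factors, with no elongation factor among them. The median log2 difference of the members was −0.70 at 0.6% AcOH and −1.31 at 0% AcOH, beside −0.23 and −0.06 over all tested genes. At both acid levels 21 members were called lower, against 22.2% of all genes, and 5 were called higher, against 13.3%.

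The 2 strain differences share no array, though each pair of values comes from the same probe set. Over the 46 members they correlated at r = 0.92, and 41 had the same sign at both acid levels. Over all 3879 genes r was 0.80, and 79.7% had the same sign. These values are across genes, which are not independent replicates. SUP35 passed the filter only through NBRC 0224 arrays, so its difference is not independent of the filter. With no filter, 27 of all 48 measured members were lower at 0% AcOH, and among the 40 above background on all 8 arrays 25 were. Centring each array on its median moves the median log2 strain difference of all genes to 0.26 at 0.6% AcOH and 0.35 at 0% AcOH, and gave 10 higher and 11 lower members at 0.6% AcOH and 12 and 26 at 0% AcOH. Quantile normalization gave 6 higher and 14 lower at 0.6% AcOH and 7 and 29 at 0% AcOH. Under it the member median was −0.44 at 0.6% AcOH and −0.90 at 0% AcOH, beside −0.02 and 0.05 over all genes. Under median centring the member median was −0.21 at 0.6% AcOH and −0.89 at 0% AcOH. The 21 lower members at 0.6% AcOH became 12 without NFRI 3145 0.6% AcOH replicate 1, and the 5 higher ones 3 without replicate 2 of that group. The 0.6% AcOH calls that ended were those of CDC60, DPS1, GCD11, GCD7, GCN3, GRS1, GUS1, KRS1, TYS1 and VAS1 without that first array and CDC60, EFB1, GCD11, GCN3, GRS1, GUS1, SES1 and SUI3 without the other. They were CDC60, GCD11, GCD7, GRS1, KRS1 and VAS1 without NBRC 0224 0.6% AcOH replicate 1 and GCN3 and GUS1 without its replicate 2. Through the shared estimate of the spread, GCD7, GUS1 and KRS1 also ended without either NBRC 0224 0% AcOH array and GUS1 without either NFRI 3145 0% AcOH array, and adjusted p over these ended calls ran from 0.051 to 0.31. At 0% AcOH the calls that ended were those of SUI1, SUP35 and TYS1 without NFRI 3145 0% AcOH replicate 1, DPS1 and EFB1 without its replicate 2, DPS1, EFB1, NIP1, SUP35 and TYS1 without NBRC 0224 0% AcOH replicate 1 and SUI1, SUI3, SUP35 and TYS1 without its replicate 2, with adjusted p from 0.058 to 0.24.

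**Figure D1:**
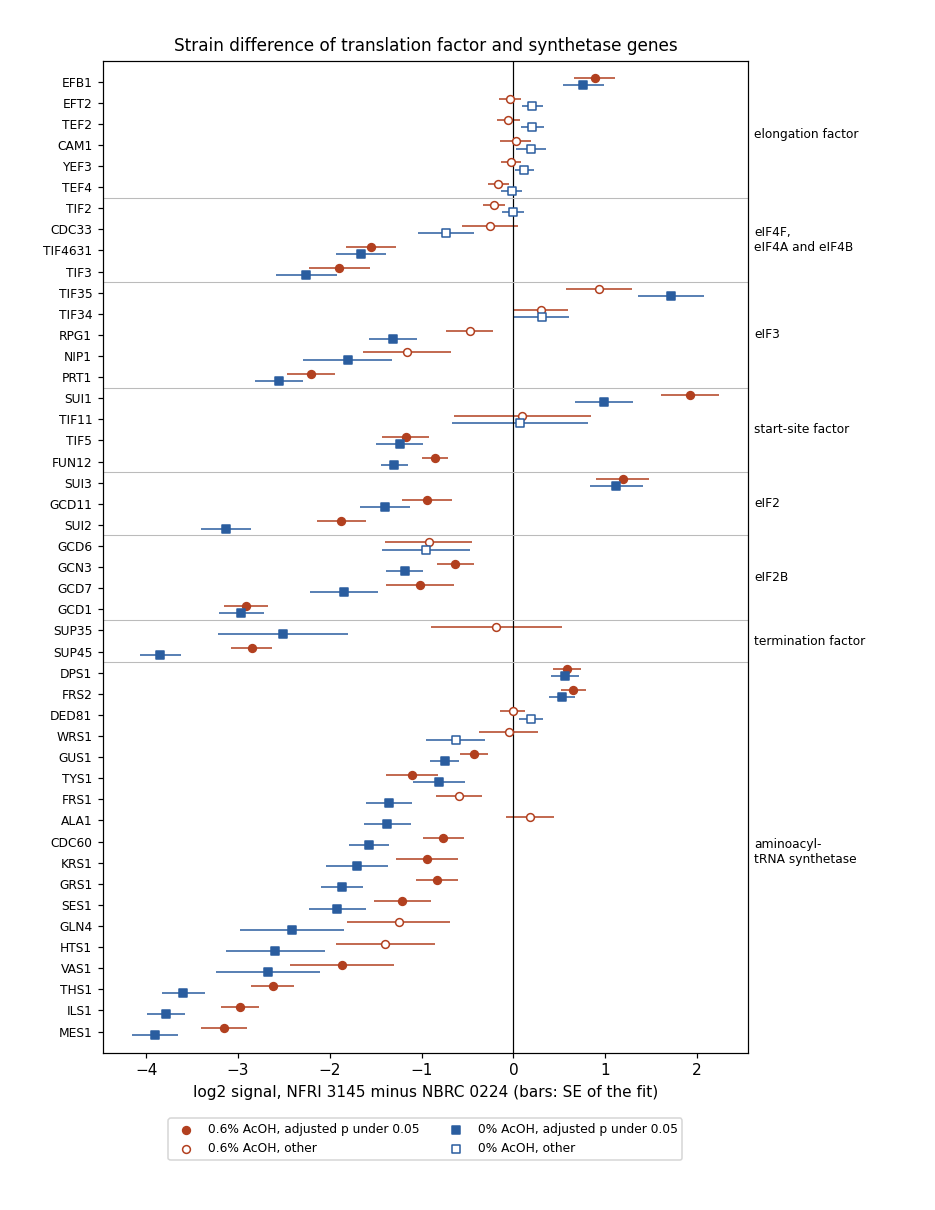
Difference in log2 signal, NFRI 3145 minus NBRC 0224, for the 46 tested members by role, at 0.6% AcOH (circles) and 0% AcOH (squares), with bars of 1 SE of the fit and filled symbols where the adjusted p was under 0.05. Most synthetase and initiation factor genes lie left of 0, down to −3.90 for MES1 at 0% AcOH, while the elongation factors lie near 0 apart from EFB1.

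Of the 18 synthetase genes, 10 were lower and 2 higher in NFRI 3145 at 0.6% AcOH (median log2 difference −0.88), against 28.7% and 17.4% of all genes. At 0% AcOH 14 were lower and 2 higher (median −1.64), against 29.1% and 21.1%. MES1 (YGR264C), which encodes methionyl-tRNA synthetase, read 89.2 and 97.7 intensity units in NFRI 3145 at 0.6% AcOH and 117 and 78.6 at 0% AcOH, against 821 and 843 in NBRC 0224 at 0.6% AcOH and 1567 and 1309 at 0% AcOH. Every NFRI 3145 array was below every NBRC 0224 array. The geometric means of the strains differed 8.92-fold at 0.6% AcOH (−3.16 ± 0.25 log2, adjusted p = 2.7e-06) and 14.9-fold at 0% AcOH (−3.90 ± 0.25, adjusted p = 3.7e-07). ILS1 (YBL076C), the isoleucyl-tRNA synthetase gene, read 208 and 192 intensity units in NFRI 3145 at 0.6% AcOH and 210.0 and 196 at 0% AcOH, against 1733 and 1436 in NBRC 0224 at 0.6% AcOH and 2865 and 2720.2 at 0% AcOH. The strains did not overlap, and the log2 difference was −2.98 ± 0.21 at 0.6% AcOH and −3.78 ± 0.21 at 0% AcOH. THS1 (YIL078W), for threonyl-tRNA synthetase, read 146 and 174 intensity units in NFRI 3145 at 0.6% AcOH and 169 and 140.1 at 0% AcOH, against 1112 and 865 in NBRC 0224 at 0.6% AcOH and 2013 and 1712 at 0% AcOH. Its arrays were separated in the same way, with mean differences of −2.62 ± 0.24 and −3.59 ± 0.24 on the log2 scale.

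VAS1 (YGR094W) and HTS1 (YPR033C), whose products charge valine and histidine tRNAs of both cytosol and mitochondria, were read close to background in NFRI 3145. VAS1 gave 25.7 and 99.5 intensity units in NFRI 3145 at 0.6% AcOH and 40.5 and 97.2 at 0% AcOH, against 235 and 145 in NBRC 0224 at 0.6% AcOH and 418 and 381 at 0% AcOH. With the 1 NFRI 3145 array below background raised to it, VAS1 was at least 2.81-fold lower at 0.6% AcOH (adjusted p = 0.019), and at 0% AcOH it was 6.36-fold lower (adjusted p = 0.0022). The 0.6% AcOH call of VAS1 ended under quantile normalization, with eBayes without trend, without NBRC 0224 0.6% AcOH replicate 1 (−1.52, adjusted p = 0.12) and without the NFRI 3145 array below background, 0.6% AcOH replicate 1 (−0.89, adjusted p = 0.19). HTS1 gave 43.9 and 126 intensity units in NFRI 3145 at 0.6% AcOH and 53.4 and 64.9 at 0% AcOH, against 346 and 109.8 in NBRC 0224 at 0.6% AcOH and 299 and 421 at 0% AcOH. At 0.6% AcOH the HTS1 arrays of the strains overlapped and no difference was called (−1.39 ± 0.54, adjusted p = 0.055), whereas at 0% AcOH HTS1 was lower in NFRI 3145 (−2.59 ± 0.54, adjusted p = 0.0021).

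ALA1 (YOR335C) encodes alanyl-tRNA synthetase and read 1113 and 1140.5 intensity units in NFRI 3145 at 0.6% AcOH and 914 and 794 at 0% AcOH, against 1324 and 749 in NBRC 0224 at 0.6% AcOH and 2446 and 1988 at 0% AcOH. The strain gap was present at 0% AcOH (−1.37 ± 0.26, adjusted p = 0.0011), while at 0.6% AcOH the NFRI 3145 arrays lay between the 2 NBRC 0224 arrays (0.18 ± 0.26, adjusted p = 0.61). Median centring called ALA1 higher in NFRI 3145 at 0.6% AcOH (0.67). GRS1 (YBR121C), the glycyl-tRNA synthetase gene, read 929 and 999 intensity units in NFRI 3145 at 0.6% AcOH and 691 and 1003 at 0% AcOH, against 2014 and 1456 in NBRC 0224 at 0.6% AcOH and 3049 and 3029 at 0% AcOH. It was lower in NFRI 3145 at both acid levels (−0.83 ± 0.23 and −1.87 ± 0.23), the first not called under quantile normalization or median centring. TYS1 (YGR185C), for tyrosyl-tRNA synthetase, read 95.9 and 151 intensity units in NFRI 3145 at 0.6% AcOH and 191 and 262 at 0% AcOH, against 288 and 233 in NBRC 0224 at 0.6% AcOH and 416 and 368 at 0% AcOH. The TYS1 difference was −1.11 ± 0.29 at 0.6% AcOH (adjusted p = 0.008) and −0.81 ± 0.29 at 0% AcOH (adjusted p = 0.034), and neither was called under quantile normalization or median centring.

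The other synthetase genes lower at 0% AcOH were GLN4, SES1, KRS1, CDC60, FRS1 and GUS1, which serve glutamine, serine, lysine, leucine, phenylalanine and glutamate. Among them GLN4 was at least 4.07-fold lower, with 1 of its NFRI 3145 arrays below background, and the smallest difference was that of GUS1 (−0.75 ± 0.16), which was not called under median centring. SES1, KRS1, CDC60 and GUS1 were also called lower at 0.6% AcOH, at −1.21 ± 0.31, −0.94 ± 0.34, −0.76 ± 0.22 and −0.43 ± 0.16. These 4 calls were lost under median centring, where the GUS1 value was 0.06. Those of SES1, KRS1 and CDC60 were also lost under quantile normalization, those of KRS1 and GUS1 with eBayes without trend, and that of KRS1 with no filter. WRS1, for tryptophan, had values of −0.05 ± 0.32 and −0.63 ± 0.32 and was not called.

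DPS1 (YLL018C), the aspartyl-tRNA synthetase gene, was higher in NFRI 3145. It read 14396 and 13860.1 intensity units in NFRI 3145 at 0.6% AcOH and 12989 and 13386 at 0% AcOH, against 8038 and 11065 in NBRC 0224 at 0.6% AcOH and 8585 and 9307 at 0% AcOH. The strains did not overlap, with differences of 0.58 ± 0.15 (adjusted p = 0.0084) and 0.56 ± 0.15 (adjusted p = 0.0091). Both calls ended with eBayes without trend. The 0.6% AcOH call also ended without NFRI 3145 0.6% AcOH replicate 1 (0.56, adjusted p = 0.061), and the 0% AcOH call without NBRC 0224 0% AcOH replicate 1 (0.50, adjusted p = 0.079) or NFRI 3145 0% AcOH replicate 2 (0.54, adjusted p = 0.06). Signals above 10000 are called near the top of the scale below, since brightness can level off there, and all but 3 of the 8 DPS1 signals are among them. DED81, for asparagine, read between 18989 and 25455 on all 8 arrays and was not called at either acid level (95% interval −0.30 to 0.28 log2 at 0.6% AcOH and −0.10 to 0.48 at 0% AcOH).

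Phenylalanyl-tRNA synthetase is built from 2 kinds of subunit, and their genes stood on opposite sides. FRS2 (YFL022C), for the alpha subunit, read 6381 and 6399 intensity units in NFRI 3145 at 0.6% AcOH and 5944 and 5907 at 0% AcOH, against 3829 and 4306 in NBRC 0224 at 0.6% AcOH and 4108 and 4121 at 0% AcOH. It was higher in NFRI 3145 by 1.57-fold (0.65 ± 0.14, adjusted p = 0.0027) and 1.44-fold (0.53 ± 0.14, adjusted p = 0.0084). FRS1 (YLR060W), for the beta subunit, read 567 and 643 intensity units in NFRI 3145 at 0.6% AcOH and 496 and 469 at 0% AcOH, against 1180.2 and 703 in NBRC 0224 at 0.6% AcOH and 1233 and 1241 at 0% AcOH. At 0% AcOH it was 2.56-fold lower in NFRI 3145 (−1.36 ± 0.25, adjusted p = 9.1e-04), and at 0.6% AcOH its value was −0.59 ± 0.25 (adjusted p = 0.075).

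The genes of both release factors were lower in NFRI 3145 at 0% AcOH. SUP45 (YBR143C), which encodes the stop codon reader eRF1, read 118 and 153 intensity units in NFRI 3145 at 0.6% AcOH and 126 and 132 at 0% AcOH, against 935 and 1008 in NBRC 0224 at 0.6% AcOH and 1814 and 1892 at 0% AcOH. All 4 NFRI 3145 arrays lay far below all 4 NBRC 0224 arrays. The geometric means of the strains differed 7.22-fold at 0.6% AcOH (−2.85 ± 0.22, adjusted p = 2.3e-06) and 14.4-fold at 0% AcOH (−3.84 ± 0.22, adjusted p = 2.1e-07). SUP35 (YDR172W), for the GTPase eRF3, was below background on all 4 NFRI 3145 arrays, at 23.9 and 24.4 at 0.6% AcOH and 10.8 and 34.4 at 0% AcOH, against 55.6 and 13.5 in NBRC 0224 at 0.6% AcOH and 109 and 111 at 0% AcOH. It was at least 2.69-fold lower at 0% AcOH (adjusted p = 0.012), a call that ended without either NBRC 0224 0% AcOH array or NFRI 3145 0% AcOH replicate 1, and was not called at 0.6% AcOH. SUP35 passed the filter only through NBRC 0224 arrays, so its call at 0% AcOH is not independent of the filter.

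**Figure D2:**
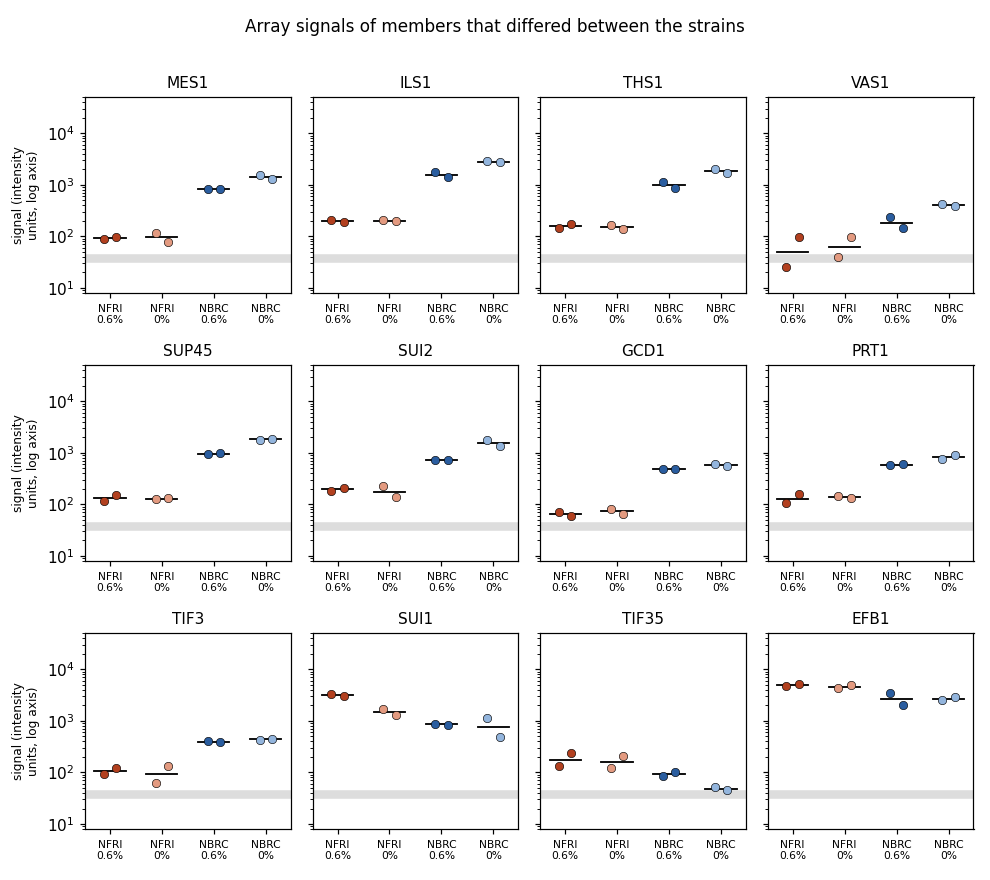
Signal of 12 members on each array (points; intensity units, log axis) in NFRI 3145 and NBRC 0224 at 0.6% and 0% AcOH, with a line at the geometric mean of the 2 arrays and a grey band over the range of array backgrounds. MES1, ILS1, THS1, VAS1, SUP45, SUI2, GCD1, PRT1 and TIF3 were lower on every NFRI 3145 array than on any NBRC 0224 array, while SUI1, TIF35 and EFB1 were higher. All 12 were called between the strains at 0% AcOH, so this separation is no added support.

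The 3 subunits of eIF2, which carries the initiator tRNA, did not stand on the same side. SUI2 (YJR007W), for the alpha subunit that Gcn2 phosphorylates, read 182 and 211 intensity units in NFRI 3145 at 0.6% AcOH and 228 and 137 at 0% AcOH, against 711 and 725 in NBRC 0224 at 0.6% AcOH and 1756 and 1366 at 0% AcOH. It was lower in NFRI 3145 by 3.66-fold (−1.87 ± 0.27, adjusted p = 1.9e-04) and 8.77-fold (−3.13 ± 0.27, adjusted p = 3.3e-06). SUI3 (YPL237W), for the beta subunit, read 404 and 578 intensity units in NFRI 3145 at 0.6% AcOH and 616 and 565 at 0% AcOH, against 277 and 162 in NBRC 0224 at 0.6% AcOH and 288 and 255 at 0% AcOH. Here NFRI 3145 was the higher strain, by 1.19 ± 0.29 (adjusted p = 0.0059) and 1.12 ± 0.29 (adjusted p = 0.0072). The first call ended without NFRI 3145 0.6% AcOH replicate 2 (0.93, adjusted p = 0.068), and the other without NBRC 0224 0% AcOH replicate 2 (1.04, adjusted p = 0.058). GCD11, for the GTP-binding gamma subunit, was lower at −0.94 ± 0.27 and −1.40 ± 0.27, of which the first was lost under median centring.

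Of the 4 tested subunits of eIF2B, the exchange factor of eIF2, 3 were lower in NFRI 3145 at both acid levels, against 22.2% of all genes. GCD1 (YOR260W), for the gamma subunit, read 69.8 and 59.6 intensity units in NFRI 3145 at 0.6% AcOH and 82.8 and 65.6 at 0% AcOH, against 483 and 490.0 in NBRC 0224 at 0.6% AcOH and 600.1 and 550.3 at 0% AcOH. The separation was of like size with acid (−2.91 ± 0.24, 7.54-fold) and without (−2.96 ± 0.24, 7.80-fold). GCD7, the beta subunit gene, differed by −1.02 ± 0.37 and −1.85 ± 0.37, and GCN3, the alpha subunit gene, by −0.63 ± 0.20 and −1.18 ± 0.20. The calls of GCD7 and GCN3 at 0.6% AcOH were lost under quantile normalization and median centring. GCD6, for the catalytic epsilon subunit, was not called at −0.92 ± 0.48 and −0.96 ± 0.48, with both NFRI 3145 acid levels reaching below background on 1 array each.

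Within eIF3, the scaffold that joins the small subunit, PRT1 (YOR361C) differed most. It encodes the b subunit and read 104 and 158 intensity units in NFRI 3145 at 0.6% AcOH and 148 and 131 at 0% AcOH, against 569 and 619 in NBRC 0224 at 0.6% AcOH and 743 and 898 at 0% AcOH. No array overlapped between strains, and PRT1 was 4.61-fold lower in NFRI 3145 at 0.6% AcOH (−2.21 ± 0.26, adjusted p = 4.0e-05) and 5.86-fold lower at 0% AcOH (−2.55 ± 0.26, adjusted p = 1.1e-05). RPG1 and NIP1, for the a and c subunits, were lower at 0% AcOH (−1.31 ± 0.26 and −1.81 ± 0.48) and not called at 0.6% AcOH (−0.48 ± 0.26 and −1.16 ± 0.48). TIF35 (YDR429C), for the g subunit, read 131 and 233 intensity units in NFRI 3145 at 0.6% AcOH and 121 and 212 at 0% AcOH, against 84.0 and 100.05 in NBRC 0224 at 0.6% AcOH and 52.2 and 45.6 at 0% AcOH. It was higher in NFRI 3145 at 0% AcOH (1.71 ± 0.36, adjusted p = 0.0021), and at 0.6% AcOH its value of 0.93 ± 0.36 had an adjusted p of 0.053 and was called under both other scalings. TIF34, for the i subunit, was not called in the deposited scaling (0.30 ± 0.30 and 0.31 ± 0.30) but was called higher under median centring (0.79 and 0.72) and, at 0% AcOH, under quantile normalization (0.84).

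**Figure D3:**
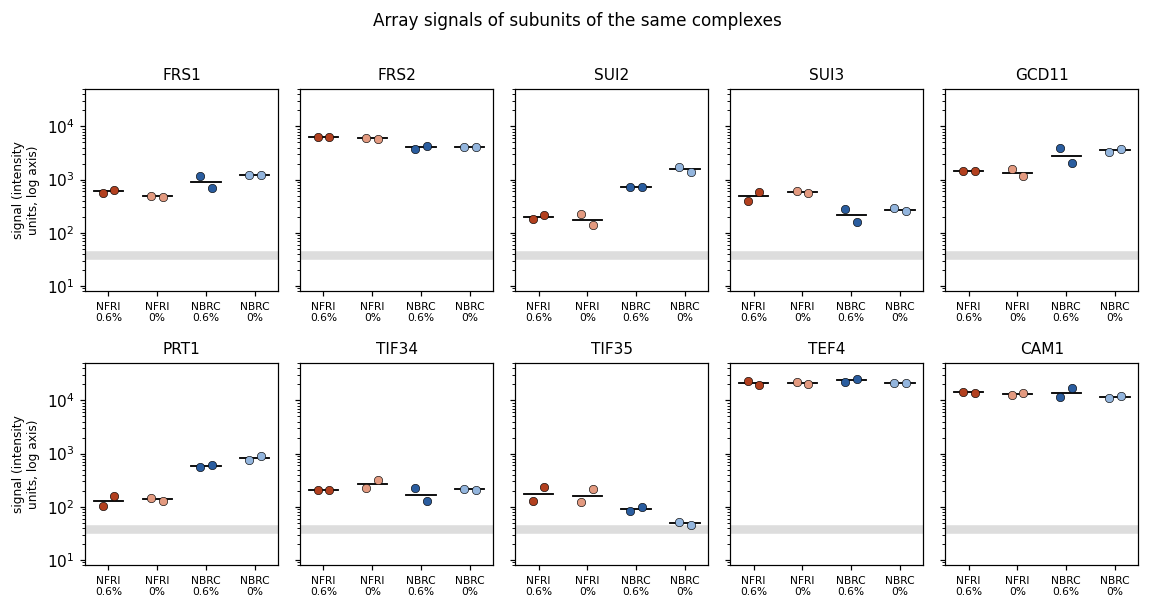
Signal on each array (points; intensity units, log axis) of genes whose products work in 1 complex: FRS1 and FRS2 of phenylalanyl-tRNA synthetase, SUI2, SUI3 and GCD11 of eIF2, PRT1, TIF34 and TIF35 of eIF3, and the paralogs TEF4 and CAM1 of eEF1B. Lines are geometric means of 2 arrays and the grey band is the range of array backgrounds. Each panel compares groups for 1 probe set; FRS2 and SUI3 were higher, and SUI2 and PRT1 lower, on all NFRI 3145 arrays than on all NBRC 0224 arrays.

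Among the factors that bind the mRNA cap and unwind the leader, TIF3 and TIF4631 were lower in NFRI 3145. TIF3 (YPR163C), which encodes eIF4B, read 91.8 and 122 intensity units in NFRI 3145 at 0.6% AcOH and 63.1 and 133 at 0% AcOH, against 408 and 382 in NBRC 0224 at 0.6% AcOH and 431 and 444 at 0% AcOH. The difference was −1.90 ± 0.33 at 0.6% AcOH (adjusted p = 6.9e-04) and −2.26 ± 0.33 at 0% AcOH (adjusted p = 1.7e-04). TIF4631 (YGR162W), 1 of the eIF4G scaffold paralogs, read 142 and 142 intensity units in NFRI 3145 at 0.6% AcOH and 183 and 128 at 0% AcOH, against 357 and 485 in NBRC 0224 at 0.6% AcOH and 420.1 and 556 at 0% AcOH. Its difference was −1.55 ± 0.27 and −1.66 ± 0.27 (adjusted p = 7.5e-04 and 3.8e-04). The other eIF4G gene, TIF4632, read 13.6 and 19.3 in NFRI 3145 at 0.6% AcOH and 13.3 and 2.96 at 0% AcOH, against 29.4 and 15.3 in NBRC 0224 at 0.6% AcOH and 32.3 and 25.4 at 0% AcOH, each under the background of its array. CDC33, for the cap-binding eIF4E, was not called (−0.25 ± 0.30 and −0.73 ± 0.30). TIF2, for the helicase eIF4A, read 24026 and 23434 intensity units in NFRI 3145 at 0.6% AcOH and 25044 and 23328 at 0% AcOH, against 24507 and 30672 in NBRC 0224 at 0.6% AcOH and 24284 and 24177 at 0% AcOH. TIF2 was not called in the deposited scaling (95% interval −0.47 to 0.05 at 0.6% AcOH and −0.26 to 0.25 at 0% AcOH), with all signals near the top of the scale.

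The start-site factors split. SUI1 (YNL244C), which encodes eIF1, was higher in NFRI 3145. Its signals were 3386 and 3093 intensity units in NFRI 3145 at 0.6% AcOH and 1693 and 1287 at 0% AcOH, against 870.1 and 841 in NBRC 0224 at 0.6% AcOH and 1121 and 496 at 0% AcOH. The gap was 3.78-fold at 0.6% AcOH (1.92 ± 0.32, adjusted p = 4.7e-04) and 1.98-fold at 0% AcOH (0.99 ± 0.32, adjusted p = 0.022), where the call ended without NBRC 0224 0% AcOH replicate 2 or NFRI 3145 0% AcOH replicate 1. Without that NBRC 0224 replicate the 0% AcOH difference was 0.40. FUN12, for eIF5B, was lower at −0.85 ± 0.15 and −1.30 ± 0.15, and TIF5, for eIF5, at −1.17 ± 0.26 and −1.24 ± 0.26. The FUN12 call at 0.6% AcOH was lost under median centring and the TIF5 call there under quantile normalization. TIF11, for eIF1A, exceeded background on 3 arrays and was not called.

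Of the 6 elongation factor genes tested, 1 was called between the strains, at both acid levels. Of all tested genes 46.1% were called at 0.6% AcOH and 50.2% at 0% AcOH. EFB1 (YAL003W), for the exchange factor of eEF1A, read 4691 and 5192 intensity units in NFRI 3145 at 0.6% AcOH and 4262 and 4964 at 0% AcOH, against 3442 and 2070.5 in NBRC 0224 at 0.6% AcOH and 2566 and 2866 at 0% AcOH. It was higher in NFRI 3145 by 0.89 ± 0.22 (adjusted p = 0.0069) and 0.76 ± 0.22 (adjusted p = 0.014). The first call ended without NFRI 3145 0.6% AcOH replicate 2 (0.81, adjusted p = 0.058), and the other with eBayes without trend, without NBRC 0224 0% AcOH replicate 1 (0.68, adjusted p = 0.098) or without NFRI 3145 0% AcOH replicate 2 (0.65, adjusted p = 0.098). TEF2 (eEF1A) read 27263 and 23086 in NFRI 3145 at 0.6% AcOH and 26630.4 and 24098 at 0% AcOH, against 23868 and 28417 in NBRC 0224 at 0.6% AcOH and 21239 and 22700.3 at 0% AcOH. EFT2 (eEF2) read 28296 and 24495 in NFRI 3145 at 0.6% AcOH and 27575 and 25438 at 0% AcOH, against 24708 and 29447 in NBRC 0224 at 0.6% AcOH and 22914 and 22968 at 0% AcOH. Neither gene was called at either acid level. The eEF1B gamma paralogs TEF4 and CAM1 were likewise not called. TEF4 read 22904 and 19708 in NFRI 3145 at 0.6% AcOH and 22162 and 20441 at 0% AcOH, against 22416 and 25348 in NBRC 0224 at 0.6% AcOH and 21386 and 21664 at 0% AcOH. CAM1 read 14464 and 13970.5 in NFRI 3145 at 0.6% AcOH and 12669 and 13741 at 0% AcOH, against 11444 and 17075 in NBRC 0224 at 0.6% AcOH and 11279 and 11863 at 0% AcOH. YEF3, for the fungal factor eEF3, read between 26878 and 32182 and was not called. The 95% intervals of the 5 uncalled genes ran from −0.42 to 0.55 on the log2 scale over both acid levels.

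These 5 genes, TIF2, DED81 and DPS1 are the 8 members with a mean signal above 10000. None of the 8 was called lower in NFRI 3145 at 0% AcOH, against 7.58% of the 277 genes at such signals. DPS1 alone of the 8 was called higher at 0% AcOH, against 35.4% of the 277, and at 0.6% AcOH, against 19.9%. Of the other 38 members 28 were called lower at 0% AcOH, against 30.8% of 3602 genes, and 5 higher, against 20.0%. What part signal near the top of the scale plays in the small differences of these 8 was not tested. Their side depended on the scaling: median centring called 3 of the 8 higher in NFRI 3145 at 0.6% AcOH and 6 at 0% AcOH, DPS1 among them each time. Quantile normalization called TEF4 lower (−0.19 and −0.31), and TIF2 as well (−0.20 and −0.24).

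Few members were called under acetic acid within a strain. In NFRI 3145, 1 of 46 rose and 0 fell by limma, against 3.82% and 9.67% of all tested genes. At an unadjusted p under 0.05, 2 were higher and 1 lower, against 9.25% and 18.5% of all genes. The median log2 change of the members was 0.06, beside −0.07 over all genes. The gene that rose was SUI1, at 3386 and 3093 under 0.6% AcOH, against 1693 and 1287 at 0% AcOH, a 2.19-fold change (1.13 ± 0.32, adjusted p = 0.036). The groups did not overlap, but the call ended without any 1 of the 4 NFRI 3145 arrays (highest adjusted p 0.22) and under quantile normalization or eBayes without trend. TYS1 in this strain read 95.9 and 151 under acid, against 191 and 262 without (−0.90 ± 0.29, adjusted p = 0.061).

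In NBRC 0224, 6 of 46 members fell under acid and 0 rose by limma, against 4.8% and 3.61% of all tested genes. At an unadjusted p under 0.05, 16 were lower and 1 higher, against 14.1% and 9.38% of all genes. The median log2 change was −0.36 for the members, beside −0.11 for all genes, and −0.80 for the 18 synthetases, of which 16 had a negative value. Of the 6 that fell, 4 were synthetase genes, the others SUI2 and SUP45.

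ALA1 read 1324 and 749 under 0.6% AcOH, against 2446 and 1988 at 0% AcOH. The groups did not overlap, and ALA1 fell 2.21-fold (−1.15 ± 0.26, adjusted p = 0.022). SUI2 read 711 and 725 under 0.6% AcOH, against 1756 and 1366 at 0% AcOH, and fell 2.16-fold (−1.11 ± 0.27, adjusted p = 0.03). SUP45 read 935 and 1008 under 0.6% AcOH, against 1814 and 1892 at 0% AcOH, a log2 change of −0.93 ± 0.22 (adjusted p = 0.027). In all 3 both acid-treated arrays were below both untreated ones. This is no added support, since the genes were picked by their calls on the same arrays. THS1 (−0.92 ± 0.24), GRS1 (−0.83 ± 0.23) and ILS1 (−0.82 ± 0.21) fell by less, with adjusted p from 0.033 to 0.049, from the signals given above. MES1, at 821 and 843 under 0.6% AcOH, against 1567 and 1309 at 0% AcOH, had a log2 value of −0.78 ± 0.25 with an adjusted p of 0.083.

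No call of this comparison was kept whichever array was left out. The 6 falls became 0 without NBRC 0224 0% AcOH replicate 1, 0 without replicate 2 of that group, 13 without NBRC 0224 0.6% AcOH replicate 1 and 1 without replicate 2 of that group. Without NBRC 0224 0.6% AcOH replicate 1, 5 members also rose (TEF2, CAM1, EFT2, TIF2 and DED81), all with signals near the top of the scale. The falls became 2 without either NFRI 3145 0.6% AcOH array. Of the 6, ALA1 kept its call under quantile normalization, which also called FUN12 lower (−0.47, adjusted p = 0.041), and ALA1, SUI2 and SUP45 kept theirs under median centring. On NBRC 0224 0.6% AcOH replicate 2, 13 of the 18 synthetase genes, 24 of the 46 members and 51.9% of all tested genes read lower than on replicate 1, among the synthetases HTS1 and ALA1, whose signals are given above. That array also had the highest maximum signal, 35739, beside 27012 to 31740.3 on the other 7. The part of this array in the falls was not tested beyond leaving it out. Without it, ALA1 had a value of −0.74, and without replicate 1 of its group −1.56.

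**Figure D4:**
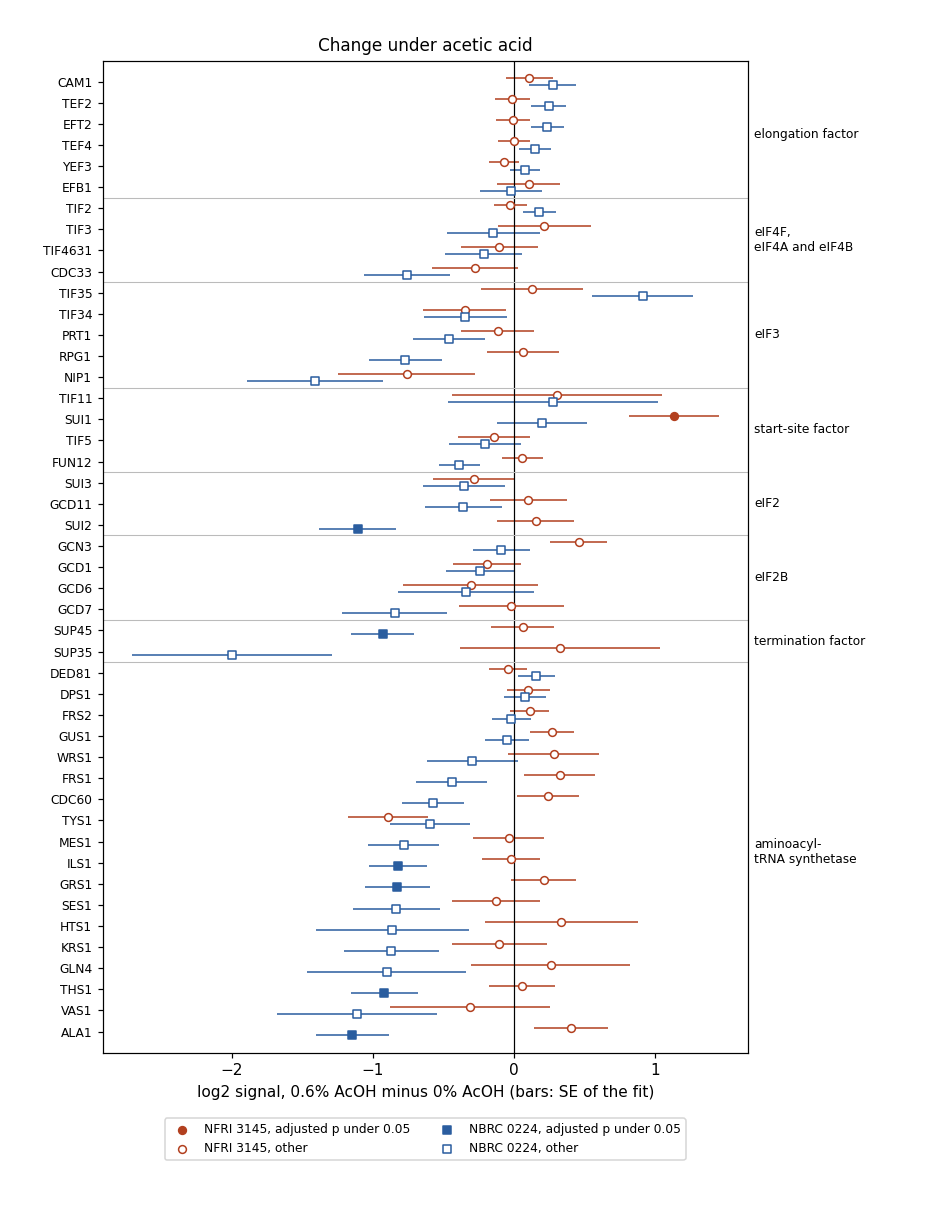
Change in log2 signal, 0.6% AcOH minus 0% AcOH, of the 46 tested members by role, in NFRI 3145 (circles) and NBRC 0224 (squares), with bars of 1 SE of the fit and filled symbols where the adjusted p was under 0.05. In NFRI 3145 the median was 0.06 and SUI1 alone is filled, while in NBRC 0224 the median was −0.36 and 6 genes are filled, all left of 0.

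The response of NFRI 3145 minus that of NBRC 0224 was above 0 for 36 of the 46 members (median 0.45, beside −0.03 over all genes), but limma called none in either direction, against 0.206% higher and 0.644% lower of all genes. At an unadjusted p under 0.05, 9 were above 0 and 0 below, against 7.61% and 9.69% of all genes. So the falls of NBRC 0224 were not shown to differ from the changes in NFRI 3145. ALA1 came nearest, with a change of 0.40 ± 0.26 in NFRI 3145 and −1.15 ± 0.26 in NBRC 0224, a difference of 1.55 ± 0.37 (adjusted p = 0.08). This difference was called under median centring (adjusted p = 0.046), with the offset of 32 (adjusted p = 0.037), among genes above background on all 8 arrays (adjusted p = 0.046) and without NBRC 0224 0.6% AcOH replicate 1 (adjusted p = 0.0056). For SUI2 the difference was 1.26 ± 0.38 and for SUP45 0.99 ± 0.31 (adjusted p = 0.14 and 0.15). Across the 46 members the 2 responses, which share no array, correlated at r = 0.17, beside 0.42 over all genes, as a description across genes.

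Averaged over both strains, 4 arrays against 4, 2 members fell and 0 rose, against 11.7% and 5.7% of all genes. At an unadjusted p under 0.05, 9 were lower and 1 higher, against 21.0% and 11.3% of all genes. TYS1 fell by 0.75 ± 0.20 on the log2 scale (adjusted p = 0.026), with the signals given above. NIP1 read 17.2 and 44.4 intensity units in NFRI 3145 at 0.6% AcOH and 44.5 and 49.5 at 0% AcOH, against 83.4 and 45.8 in NBRC 0224 at 0.6% AcOH and 204 and 132 at 0% AcOH. It fell at least 1.68-fold, with 1 acid-treated NFRI 3145 array below background (adjusted p = 0.049). Neither call held under quantile normalization or median centring. Of the NBRC 0224 arrays, leaving out either 0% AcOH one or 0.6% AcOH replicate 2 left 0 falls, and leaving out 0.6% AcOH replicate 1 gave 8 falls and 4 rises. Of the NFRI 3145 arrays, leaving out 0.6% AcOH replicate 1 left 0 falls, 0.6% AcOH replicate 2 gave 3, 0% AcOH replicate 1 2 and 0% AcOH replicate 2 1.

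Of 24 other cytosolic translation factors and regulators, 22 were tested. At 0.6% AcOH 5 were lower and 6 higher in NFRI 3145 (22.7% and 27.3%, median 0.02), against 28.7% and 17.4% of all tested genes. At 0% AcOH 6 were lower and 4 higher (27.3% and 18.2%, median −0.05), against 29.1% and 21.1%. For genes outside the set, values are given only in the deposited scaling with all 8 arrays. At each acid level, median centring adds the same amount to the strain difference of every gene. It moves their median from −0.23 to 0.26 at 0.6% AcOH and from −0.06 to 0.35 at 0% AcOH. The smaller differences, such as those of GCN4 and ARC1 at 0.6% AcOH and PAB1 at 0% AcOH, therefore depend on the scaling. Whether their calls hold under it is not given here. CLU1, whose product associates with eIF3, was below background on all 4 NFRI 3145 arrays and above it on all 4 NBRC 0224 arrays, and was at least 4.50-fold and 7.70-fold lower. YGR054W, for eIF2A, lay on the same sides of background and was at least 4.11-fold and 6.82-fold lower. Both genes passed the filter only through NBRC 0224, so their differences are not independent of it. ANB1, the eIF5A gene known for expression at low oxygen, read 1414 and 1200.4 in NFRI 3145 at 0.6% AcOH and 1885 and 1998 at 0% AcOH, against 491 and 496 in NBRC 0224 at 0.6% AcOH and 619 and 433 at 0% AcOH. ANB1 was higher in NFRI 3145 by 1.40 ± 0.22 and 1.91 ± 0.22, while its paralog HYP2 was not called (0.05 ± 0.13 and 0.27 ± 0.13), with signals near the top of the scale. PAB1, for the poly(A)-binding protein, was not called at 0.6% AcOH (−0.02 ± 0.15) and lower at 0% AcOH (−0.45 ± 0.15). ARC1, whose product binds the methionyl and glutamyl synthetases, read 124 and 139 in NFRI 3145 at 0.6% AcOH and 78.1 and 95.3 at 0% AcOH, against 245 and 217 in NBRC 0224 at 0.6% AcOH and 459 and 314 at 0% AcOH. It was lower in NFRI 3145 at both acid levels (−0.81 ± 0.27 and −2.14 ± 0.27). ARC1 was the 1 call at each acid level among the 3 tested genes of its list. Of all tested genes 46.1% were called at 0.6% AcOH and 50.2% at 0% AcOH.

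In the Gcn4 pathway, GCN4 read 3944 and 4420.2 in NFRI 3145 at 0.6% AcOH and 4517 and 3969 at 0% AcOH, against 7319 and 5246 in NBRC 0224 at 0.6% AcOH and 10286 and 9747 at 0% AcOH. It was lower in NFRI 3145 (−0.57 ± 0.17, adjusted p = 0.02, and −1.24 ± 0.17, adjusted p = 1.3e-04). Under acid it fell in NBRC 0224 (−0.69 ± 0.17, adjusted p = 0.034) and had a value of −0.02 ± 0.17 in NFRI 3145, and the difference of the responses was not called (0.67 ± 0.25, adjusted p = 0.21). GCN4 is mainly controlled at translation, which arrays do not measure. The kinase gene GCN2 was not called in any of the 6 comparisons. GCN20, for a partner that Gcn2 needs for activation, was higher in NFRI 3145 (0.69 ± 0.17 and 1.54 ± 0.17, adjusted p = 0.0069 and 2.5e-05). Averaged over both strains, the RNA-binding protein gene SRO9 rose under acid (1.15 ± 0.27) and NEW1, an ATPase gene of termination, fell (−0.32 ± 0.08).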

How the data were processed

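Poly(A) RNA of 8 samples was hybridised to Affymetrix yeast arrays, 2 per strain and acid level. Per the submitters' processing notes the software was GCOS, its version not given in the sources used here. The deposited values are linear probe set intensity values, which the authors had scaled: the mean of an array, without its highest and lowest 2% of values, was 499.3 to 499.5. Of 10928 probe sets, 5498 matched 5449 S. cerevisiae genes of assembly R64 by gene ID, and 1746 named S. pombe genes set the background. Probe sequences were not used here, and signals were not corrected for sequence differences between the strains.

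The highest-mean probe set stood for each gene. Genes above background on at least 2 arrays were tested on log2 intensity with limma 3.58.1 in R 4.3.3 (4 group means, eBayes with trend, 4 residual degrees of freedom, 11.3 after moderation). Where arrays lay below background, folds were computed with them raised to it and are given as at least that fold. The 6 comparisons are the acid response in each strain, their difference and mean, and the strain difference at each acid level. The fit was tested on simulated data. Alternatives were quantile normalization, median centring, no filter, above background on all 8 arrays, an offset of 32, eBayes without trend, a replicate block, the mean of all probe sets of a gene, and leaving out each array. Members, lists and the rule for named genes (called members, the 8 largest each way, and fixed paralog pairs) were chosen with earlier results of these data known. Plots come from matplotlib 3.10.9 (Python 3.11.15). The number of arrays limits the precision.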

Additional observations from a re-analysis of the deposited data

How the results depend on the processing

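Of the 26 member calls between strains at 0.6% AcOH, 11 were kept under every alternative tried, and of the 34 at 0% AcOH 26 were. No acid response call of a member was. At 0.6% AcOH median centring gave 10 higher and 11 lower, and at 0% AcOH the number higher was 12 under median centring and 3 with eBayes without trend, with the GUS1 difference at 0.6% AcOH turned by centring to 0.061. For NBRC 0224, falls under acid numbered 2 after quantile normalization, 3 after median centring and 0 without trend. For NFRI 3145, rises numbered 0, 2 and 0 under the same 3, and falls 1 with an offset of 32 or among genes above background on all 8 arrays. For the averaged response, falls numbered 0 after quantile normalization, median centring or without trend, and 1 with no filter, on all 8 arrays or with the replicate block. Rises there, and members with a higher response in NFRI 3145, numbered 1 each under median centring, the offset, the filter on all 8 arrays or the replicate block (SUI1 and ALA1). The causes were not tested. Leaving out 1 array gave 12 to 23 lower and 3 to 6 higher at 0.6% AcOH and 25 to 30 lower and 4 to 7 higher at 0% AcOH. In NFRI 3145 it gave 0 to 1 rises and 0 to 1 falls, in NBRC 0224 0 to 5 and 0 to 13, in the averaged response 0 to 4 and 0 to 8, and for the difference of the responses 0 to 3 higher and 0 to 1 lower, with a lone array assumed to vary like the other groups. Arrays with the same replicate number share only that number (correlation of their deviations −0.05 to 0.05 between groups). With the replicate block, 6 members were higher and 21 lower at 0.6% AcOH, 6 and 28 at 0% AcOH, and 5 fell in NBRC 0224. Members near background (TIF11, SUP35, GLN4, VAS1, NIP1, GCD6) have bounds or wide intervals, and signals above 10000 may understate a difference.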

Other observations

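The mitochondrial counterparts of the set, 13 tested of 19 listed synthetases and factors, were mostly read near background. TUF1, for the mitochondrial elongation factor Tu, rose under acid in both strains, with 12415 and 12462 in NFRI 3145 at 0.6% AcOH, against 7096 and 7623 at 0% AcOH (0.76 ± 0.15, adjusted p = 0.007). In NBRC 0224 it read 12329 and 16347 at 0.6% AcOH, against 8459.5 and 9324 at 0% AcOH (0.68 ± 0.15, adjusted p = 0.019), and its acid-treated signals lay above 10000. MSW1, for the mitochondrial tryptophanyl-tRNA synthetase, fell at least 2.08-fold in NFRI 3145 (adjusted p = 0.0074). SLM5, for the mitochondrial asparaginyl-tRNA synthetase, was higher in NFRI 3145 than in NBRC 0224 at 0.6% AcOH (1.10 ± 0.22) and at 0% AcOH (0.82 ± 0.22). Its signals were 530.3 and 521 intensity units in NFRI 3145 at 0.6% AcOH and 379 and 450.2 at 0% AcOH, against 250.3 and 240.4 in NBRC 0224 at 0.6% AcOH and 228 and 241 at 0% AcOH. At 0.6% AcOH 2 of the 13 were higher and 2 lower in NFRI 3145, against 17.4% and 28.7% of all tested genes. At 0% AcOH 2 were higher and 1 lower, against 21.1% and 29.1%. MSE1, MSM1 and MST1 exceeded background only on NBRC 0224 arrays, and ISM1 and DIA4 only on NFRI 3145 arrays. The strain differences of these genes are not independent of the filter. In the acid response of NFRI 3145 1 of the 13 rose and 1 fell, against 3.82% and 9.67% of all genes. In that of NBRC 0224 1 rose and 0 fell, against 3.61% and 4.8%.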
